A study of Mus musculus with 3 samples.

Results

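Mnx1 (ENSMUSG00000001566) and v.EGFP (listed as v.pEGFP) are 2 of the 31744 gene symbols counted in single-cell RNA sequencing of mouse cells on the way from fibroblast to motor neuron. They were chosen by name, not by their values: Mnx1 is the gene also called Hb9, and v.EGFP is the transcript of the green fluorescent reporter Hb9::GFP, which the cells carry. Each symbol is a single row in all 3 deposited matrices.

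Mnx1 is a homeodomain transcription factor that motor neurons of the embryonic spinal cord switch on as they leave the cell cycle and then keep, and it holds back the interneuron programme in them. LIM-homeodomain factors of the Lhx3 and Isl1 kind, together with proneural factors such as Neurog2, act on enhancers of Mnx1 in the embryo. In Hb9::GFP mice, regulatory DNA of Mnx1 drives the fluorescent protein, which makes the reporter the usual marker by which motor neurons are sorted. The reporter is a transgene with its own transcript, so its RNA and that of Mnx1 are counted separately. Outside motor neurons, Mnx1 is known from the notochord, the tail bud and the insulin-producing cells of the pancreas.

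All 3 libraries came from mouse embryonic fibroblasts of the Hb9::GFP genotype that had received LNI, one cassette that joins mLhx3, mNgn2x3HA and Isl1 through 2A peptides, and DDRR, which joins HRAS(G12V) through an IRES to p53DD, a fragment that blocks p53. The first was collected at 14 dpi (the labels' time unit) from cells sorted as Hb9::GFP+ in a culture without supplements. The second was collected and sorted in the same way from a culture with supplements, which were RepSox, a kinase inhibitor, and the factors BDNF, CNTF, GDNF and FGF. The last was collected at 4 dpi from a culture with supplements and was sorted for low CellTrace-FarRed, a dye that cell division dilutes. Cells of the 14 dpi libraries were released with papain and DNase and those of the 4 dpi library with trypsin. Each group holds 1 library, so no difference between groups has a replicate check, no p-value is given, and every interval is a 95% interval for counting error alone. The 14 dpi cells were chosen by the fluorescence of the reporter and the 4 dpi cells were not. Time, sort and dissociation therefore cannot be told apart between 14 dpi and 4 dpi. Between the library without supplements and that at 4 dpi, supplements differ as well and cannot be told apart from these.

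After filtering, 3716 cells without supplements, 2314 cells with supplements and 4492 cells at 4 dpi were kept, with a median of 10664, 14380.5 and 2312.5 unique molecular identifiers (UMIs, each standing for 1 captured transcript). Pairs of libraries shared 3 to 5 cell barcodes. The summed levels of 18 neuron markers were 6204 CPM without supplements, 10320 CPM with supplements and 1758 CPM at 4 dpi, and those of 20 fibroblast markers were 4180, 2773 and 6982 CPM, where CPM is the count per 1e6 UMIs of the cells summed. Of 10 markers of pancreatic endocrine cells, another site of Mnx1, 5 were at 0 UMIs without supplements, 5 with supplements and 7 at 4 dpi, and Ins1, Ins2, Pdx1 and Pax4 were so in all 3 libraries. The list summed to 68.3 CPM without supplements, 101 CPM with supplements and 82.2 CPM at 4 dpi, with 1 marker at 10 CPM or more in each library. Of 7 markers of the notochord and tail bud, 4, 2 and 5 were at 0 UMIs, with Noto and Wnt3a among them in all 3 libraries, and the list summed to 2.18, 3.83 and 0.656 CPM.

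The start of Mnx1 is shown because the reporter is built on regulatory DNA of this gene and because the factors of the cassette bind short motifs of the kinds marked here. The RefSeq promoter table gives the 250 bases before and 50 bases after the start of Mnx1 as chr5:29478421-29478720 on the minus strand of GRCm38.p6. The matrices were made on GRCm39, so no position in them was read from this sequence. Capitals mark the E-box CANNTG, the motif of proneural factors, and TAAT, the core of homeodomain motifs.
Mnx1: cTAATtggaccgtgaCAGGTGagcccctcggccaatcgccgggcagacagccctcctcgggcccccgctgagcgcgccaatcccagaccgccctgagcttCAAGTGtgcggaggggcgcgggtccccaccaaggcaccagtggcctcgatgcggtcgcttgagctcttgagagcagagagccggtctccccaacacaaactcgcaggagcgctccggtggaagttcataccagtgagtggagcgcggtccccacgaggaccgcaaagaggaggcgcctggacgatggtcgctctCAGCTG
The window held 3 E-boxes, CAGGTG at 235 and CAAGTG at 150 bases before the start and CAGCTG at 45 bases after it. Of these, 2 also match CAGNTG, the narrower form of the motif. TAAT occurred 1 time, 249 bases before the start, and the GC content was 66.3%. Searched on both strands, windows of this length hold CANNTG in 72.3%, CAGNTG in 51.4% and TAAT in 58.0% of the 32841 promoters in the table. The sequence of the reporter is a vector and is not shown, and no source used here gives how far the transgene shares this window.

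Mnx1 RNA was scarce in every library, and its level was highest without supplements. It was counted 980 times without supplements, 441 times with supplements and 7 times at 4 dpi. These counts corresponded to 21.4 CPM without supplements (20.1 to 22.8), 12.0 CPM with supplements (10.9 to 13.2) and 0.574 CPM at 4 dpi (0.231 to 1.18). Ordered by UMIs, Mnx1 held rank 6236 among all symbols without supplements, rank 8190 with supplements and rank 13589 at 4 dpi. The intervals of the 3 libraries do not overlap.

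The reporter was among the most abundant transcripts of the sorted cells, and its order between the 14 dpi libraries was the opposite of that of Mnx1. v.EGFP stood at 1911 CPM without supplements (1899 to 1924), 2445 CPM with supplements (2429 to 2461) and 182 CPM at 4 dpi (174 to 189). It held rank 83, rank 35 and rank 839 in the same libraries. The sum of 87649 v.EGFP UMIs without supplements and 89927 with supplements leaves almost no counting error, unlike that of Mnx1.

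Between the 14 dpi libraries, Mnx1 was 1.78-fold higher without supplements (1.59 to 2.0), a log2 ratio of 0.83 (0.67 to 1.00). The log2 ratio of v.EGFP without over with supplements was -0.36 (-0.37 to -0.34), so the reporter was lower without supplements while the gene was higher. Neither member reached a 2-fold difference in this comparison. Of the 9374 features at 10 CPM or more in either library, 5.18% were higher without supplements by 2-fold or more and 4.79% lower by as much, with a median log2 ratio of -0.03. A ratio above that of Mnx1 was found for 692 of them, and one below that of v.EGFP for 2320.

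Against 4 dpi, both members were higher in each sorted library. The log2 ratio of Mnx1 was 5.22 without supplements (4.17 to 6.54) and 4.39 with supplements (3.33 to 5.71). For v.EGFP it was 3.39 without supplements (3.33 to 3.46) and 3.75 with supplements (3.69 to 3.81). Both of the 2 members were thus at least 2-fold higher, where 15.7% of 9474 features were so without supplements over 4 dpi and 15.4% of 9415 features with supplements over 4 dpi. The gate at 14 dpi was set on the fluorescence of the reporter, so a higher v.EGFP level there follows from the choice of cells. Mnx1 reached the 10 CPM needed to enter these comparisons only through the 14 dpi libraries. The count of members is therefore a description and no support for a change with time. Both ratios use the same 4 dpi library, whose culture had supplements.

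**Figure D1:**
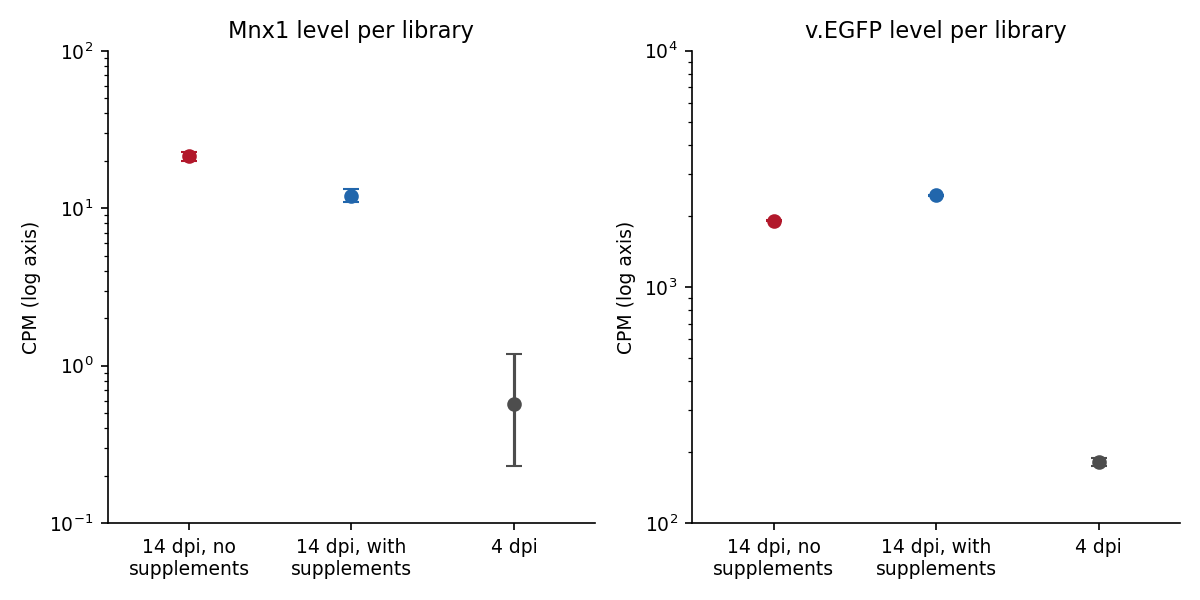
Level of Mnx1 (left) and v.EGFP (right) in each library, in CPM on log axes. Points are the summed UMIs of all kept cells of 1 library and bars are exact Poisson 95% intervals. Mnx1 is highest without supplements, at 21.4 CPM, and v.EGFP is highest with supplements, at 2445 CPM.

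Most sorted cells held the reporter transcript, while few held a Mnx1 transcript. As counted, 88.7% of cells without supplements, 94.0% with supplements and 5.97% at 4 dpi had at least 1 v.EGFP UMI. For Mnx1 the shares were 15.2%, 13.9% and 0.134%, that is 564, 321 and 6 cells. Of the cells with Mnx1, 359 without supplements, 252 with supplements and 5 at 4 dpi held a single UMI, and 95, 26 and 0 held 3 or more. The most Mnx1 UMIs in 1 cell were 13 without supplements, 9 with supplements and 2 at 4 dpi. For v.EGFP the largest counts in 1 cell were 419, 1139 and 54.

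These shares depend on depth, so each cell was thinned at random to 1000 UMIs, which left out 22 shallower cells without supplements, 31 with supplements and 113 at 4 dpi. At that depth Mnx1 was found in 1.84% of cells without supplements (1.43 to 2.33), 1.45% with supplements (0.997 to 2.02) and 0.0685% at 4 dpi (0.0141 to 0.200). The intervals of the 14 dpi libraries overlap at 1000 UMIs, and their difference was not tested. In expectation over all thinnings to 1000 UMIs, the shares were 1.91% without supplements and 1.27% with supplements. At 5000 UMIs, which 298 cells without supplements, 214 with supplements and 4123 at 4 dpi did not reach, the shares were 7.93% without supplements (7.04 to 8.89) and 5.19% with supplements (4.28 to 6.23), and these intervals do not overlap. At 4 dpi, 0 of 369 cells held Mnx1 at 5000 UMIs, with an interval that reaches up to 0.995%.

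v.EGFP at 1000 UMIs was found in 61.2% of cells without supplements (59.6 to 62.8), 71.7% with supplements (69.9 to 73.6) and 4.82% at 4 dpi (4.20 to 5.49). At 5000 UMIs the shares were 86.0% without supplements, 92.4% with supplements and 6.50% at 4 dpi. In value, the order of the libraries was that of the CPM at each depth, for the gene as for the reporter. In the fibroblast-like clusters of the 4 dpi library, taken as the cells that should hold neither transcript, v.EGFP was found in 0.750% of 2533 cells at 1000 UMIs (0.452 to 1.17) and Mnx1 in 0. The median depth of those fibroblast-like cells was 2035 UMIs as counted, against 2312.5 UMIs over the whole 4 dpi library.

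**Figure D2:**
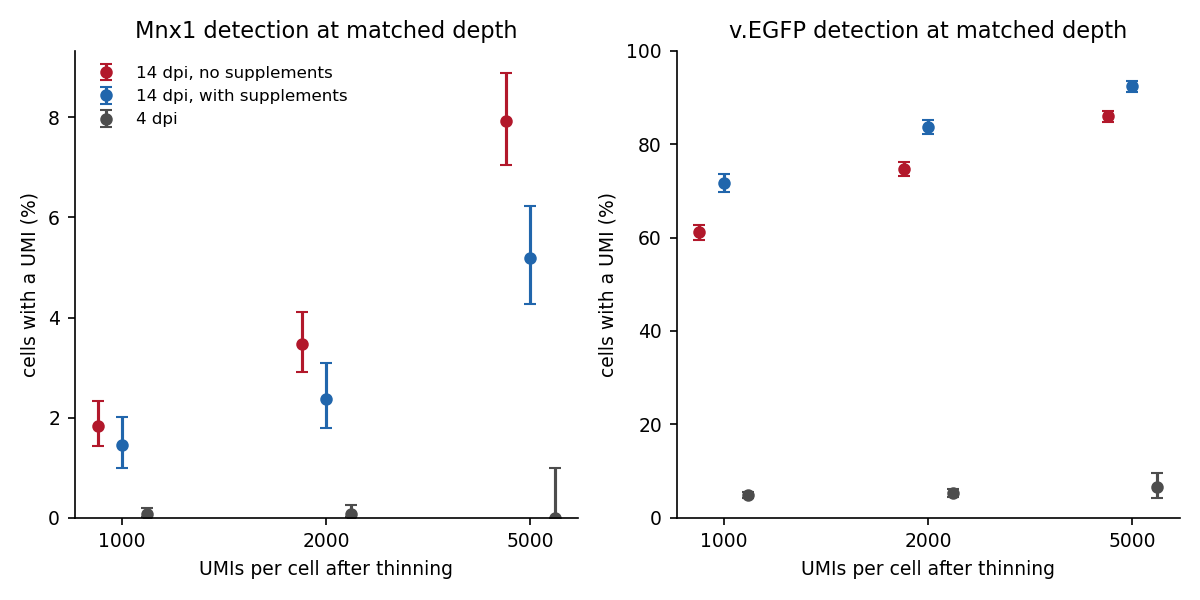
Share of cells with at least 1 UMI of Mnx1 (left) and v.EGFP (right) after thinning each cell to 1000, 2000 or 5000 UMIs. Points are libraries and bars are exact binomial 95% intervals. At 5000 UMIs Mnx1 is found in 7.93% of cells without supplements and 5.19% with supplements, and v.EGFP in 86.0% and 92.4%.

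The reporter was spread over most sorted cells but unevenly. Per 10000 UMIs of a cell, the median v.EGFP count was 11.5 without supplements and 15.8 with supplements, the 95th percentile was 61.9 and 80.8, and the largest value was 169 and 249. The tenth of cells with the largest share of v.EGFP held 36.2% of v.EGFP UMIs and 30.7% of Mnx1 UMIs without supplements, and 33.3% and 27.7% with supplements. Although every 14 dpi cell had passed the fluorescence gate, 419 cells without supplements and 139 with supplements had no v.EGFP UMI. Those cells were shallower, with a median of 8072 UMIs without supplements and 6169 UMIs with supplements. Detection also differed by class at matched depth. At 5000 UMIs without supplements, v.EGFP was found in 66.0% of cells in fibroblast-like clusters and 96.7% in neuron-like clusters. With supplements these shares were 41.4%, from 29 cells, and 95.7%. The cells with no v.EGFP UMI held 5 of the 980 Mnx1 UMIs without supplements and 1 of the 441 with supplements.

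At 5000 UMIs per cell, nearly every sorted cell with a Mnx1 transcript also held the reporter's. Without supplements, 267 cells held both, 4 held only Mnx1, 2674 held only v.EGFP and 473 held neither. Mnx1 was thus found in 9.08% of cells with v.EGFP (8.06 to 10.2), against 0.839% of cells without it (0.229 to 2.13), an odds ratio of 11.8 (4.38 to 31.8). With supplements, 108 cells held both, 1 only Mnx1, 1833 only v.EGFP and 158 neither. Mnx1 was found there in 5.56% of cells with v.EGFP (4.59 to 6.68), against 0.629% of cells without it (0.0159 to 3.45), an odds ratio of 9.31 (1.29 to 67.1). Read the other way, 98.5% of cells with Mnx1 held v.EGFP without supplements, against 85.0% of cells without Mnx1, and with supplements the shares were 99.1% and 92.1%. The odds depended on depth. At 1000 UMIs, 88.2% of cells with Mnx1 held v.EGFP without supplements, against 60.7% of cells without Mnx1, an odds ratio of 4.86 (2.32 to 10.2). With supplements the shares at 1000 UMIs were 81.8% and 71.6%, from 33 cells with Mnx1, and the odds ratio of 1.78 (0.733 to 4.34) has an interval that includes 1.

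Because so few sorted cells lacked the reporter, cells were also divided at the library's median v.EGFP count. Above it, Mnx1 was found in 14.2% of cells without supplements, against 2.47% of the other cells, an odds ratio of 6.51 (4.69 to 9.04). With supplements the shares were 8.01% above the median and 2.69% in the other cells, an odds ratio of 3.15 (2.05 to 4.84). A Mantel-Haenszel odds ratio, which pools the odds within clusters of similar cells, was 3.15 without supplements and 2.82 with supplements for this division. For v.EGFP at 1 UMI it was 4.13 without supplements and 7.91 with supplements, against the 11.8 and 9.31 obtained without clusters. At 1000 UMIs it was 2.53 without supplements and 1.45 with supplements.

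At 4 dpi, where the fluorescence of the reporter played no part in the sort, all 6 cells with Mnx1 also held v.EGFP, although v.EGFP was found in 268 of the 4492 cells. Of those 6 cells, 5 held 1 Mnx1 UMI each, beside 21, 35, 31, 22 and 17 v.EGFP UMIs. The remaining cell held 2 Mnx1 UMIs beside 10 v.EGFP UMIs. Their depth was 1182 to 3368 UMIs. The 4224 cells without v.EGFP held 0 Mnx1 UMIs.

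Sorted cells with Mnx1 held more reporter than those without it. At 5000 UMIs without supplements, the median v.EGFP count was 5 in the 3147 cells with 0 Mnx1 UMIs, 16 in the 218 cells with 1, 17 in the 36 cells with 2 and 24 in the 17 cells with 3 or more. With supplements the medians were 8 in 1991 cells, 16 in 95 cells, 27 in 13 cells and 27 in a single cell. The quartiles of cells with 1 and 2 Mnx1 UMIs overlap in both libraries. Across cells, Spearman's rho between the UMIs of gene and reporter was 0.26 over 3418 cells without supplements and 0.14 over 2100 cells with supplements. Most of these cells hold 0 Mnx1 UMIs and the cells of a library share its reagents, so the weak correlation is given as a description only.

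Divided into terciles (equal parts, from lowest to highest) by the share of v.EGFP among a cell's UMIs, the sorted cells with the most reporter stood further above those with the least in Mnx1 than in nearly any other feature. Without supplements Mnx1 stood at 2.70 CPM in the lowest tercile (1.91 to 3.70), 13.8 CPM in the middle tercile (12.0 to 15.8) and 44.5 CPM in the highest tercile (41.3 to 47.9). With supplements it stood at 3.76 CPM in the lowest tercile (2.72 to 5.06), 8.58 CPM in the middle tercile (7.05 to 10.4) and 22.9 CPM in the highest tercile (20.3 to 25.7). The highest tercile held 74.5% of all Mnx1 UMIs without supplements and 65.5% with supplements. No intervals of neighbouring terciles overlap in either library.

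The log2 ratio of Mnx1 in the highest over the lowest tercile was 4.05 without supplements (3.58 to 4.56) and 2.61 with supplements (2.14 to 3.105). Leaving out v.EGFP itself, 0 of 9403 features at 10 CPM or more in either tercile had a higher ratio without supplements, and 2 of 9128 had one with supplements. Those 2 were Gm15389, a predicted gene counted 0 times in the lowest tercile, and Fabp4, a fatty acid carrier with 94.4 CPM in the highest tercile and 5.41 CPM in the lowest. Fabp4 and Prph also lead cluster 18, 26 cells, all with supplements, with 17053 CPM of v.EGFP. The part of those cells in the ratios of Fabp4 and Prph was not tested. Without supplements, 9.96% of features were higher by 2-fold or more and 8.98% lower by as much in the highest tercile, and with supplements 0.548% were higher and 3.35% lower. In both libraries Mnx1 reached the 10 CPM needed to enter this comparison through the highest tercile and not through the lowest.

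**Figure D3:**
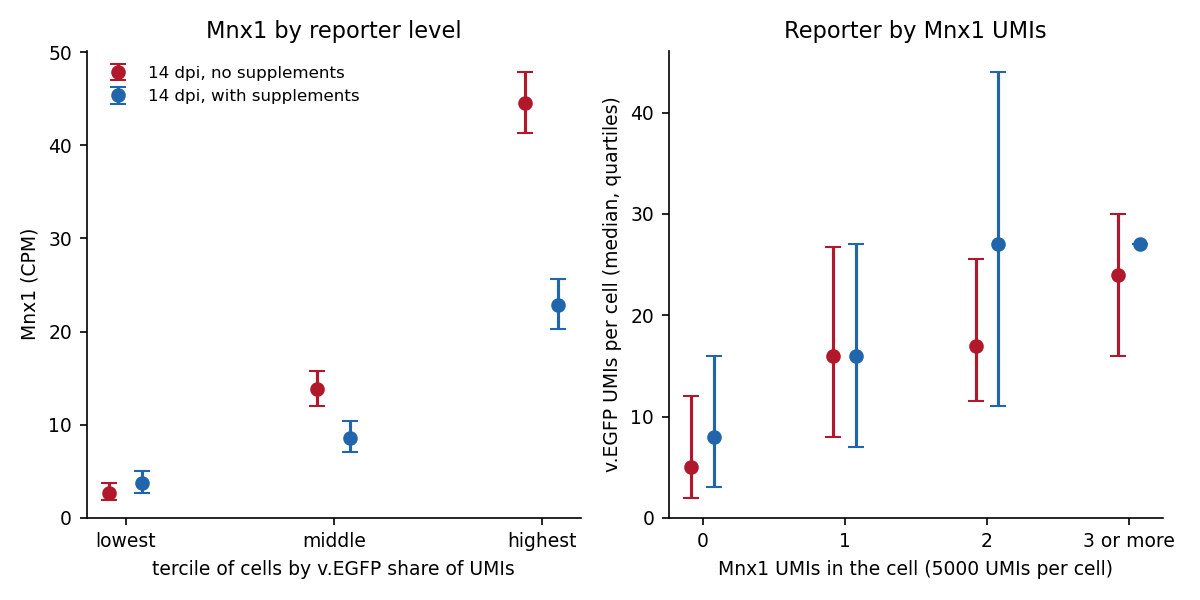
Left: Mnx1 CPM in terciles of the cells of each 14 dpi library by their v.EGFP share of UMIs, with exact Poisson 95% intervals. Right: median and quartiles of v.EGFP UMIs in cells with 0, 1, 2 and 3 or more Mnx1 UMIs at 5000 UMIs per cell. Mnx1 reaches 44.5 CPM without supplements and 22.9 CPM with supplements in the highest tercile, against 2.70 and 3.76 CPM in the lowest.

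Fibroblast-like cells took 3.80% of the highest tercile and 52.6% of the lowest tercile without supplements, and 0.519% and 3.50% with supplements. The split was therefore repeated inside each cluster and pooled, which left fibroblast-like cells at 25.3% of both terciles without supplements and at 1.31% and 1.80% with supplements. Mnx1 then stood at 34.3 CPM in the highest tercile and 9.64 CPM in the lowest without supplements, a log2 ratio of 1.83 (1.56 to 2.11). With supplements it stood at 22.0 CPM in the highest tercile and 4.55 CPM in the lowest, a log2 ratio of 2.28 (1.85 to 2.73). A higher ratio was found for 0 of 9112 features without supplements and 0 of 9083 with supplements, where the median log2 ratio was -0.03 and -0.06. In this split too, Mnx1 reached the 10 CPM needed to enter through the highest tercile and not through the lowest. In the split of whole libraries, the log2 ratio without supplements was 2.93 when fibroblast-like clusters were left out.

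The same direction was seen in each of the 12 cluster-by-library units with at least 100 cells. Without supplements in cluster 8, whose leading genes are neuronal (Snhg11, Mapt), Mnx1 stood at 76.4 CPM in the cells with the most reporter and 33.2 CPM in those with the least. In cluster 12 the levels were 89.9 and 30.9 CPM, and in cluster 7 they were 17.5 and 2.97 CPM. With supplements, cluster 1 had 17.8 and 4.50 CPM and cluster 9 had 69.8 and 1.76 CPM, the last from a single UMI. The interval of the log2 ratio lay above 0 in every unit except cluster 14 without supplements, where each tercile held 1 Mnx1 UMI.

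**Figure D4:**
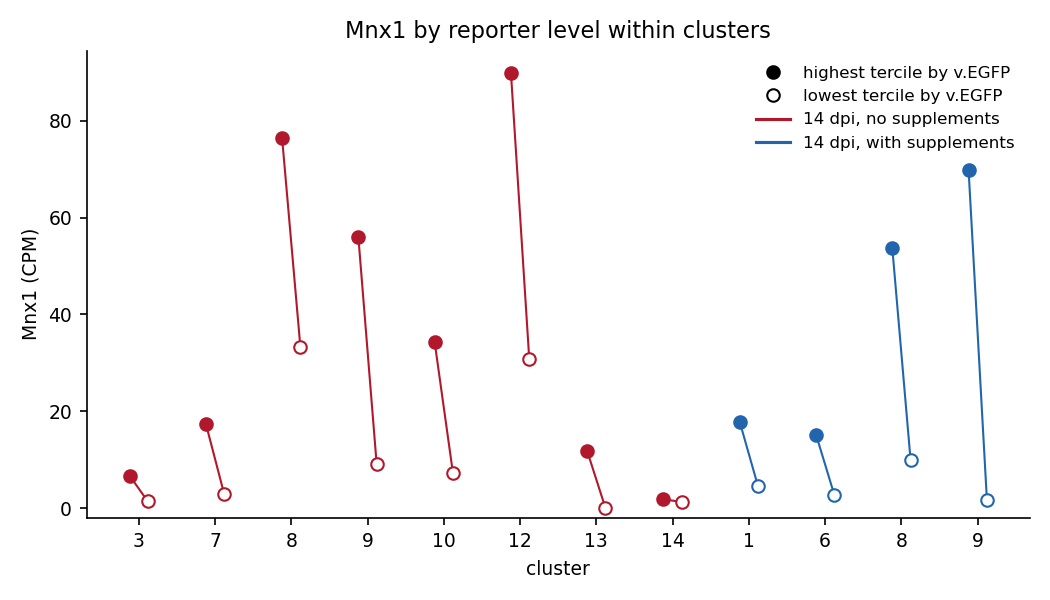
Mnx1 CPM in the highest tercile (filled) and the lowest tercile (open) of cells by v.EGFP share, formed inside each cluster with at least 100 cells of a 14 dpi library. In cluster 12 without supplements the levels are 89.9 and 30.9 CPM, and in cluster 9 with supplements 69.8 and 1.76 CPM. The pair of cluster 14 rests on 1 UMI in each tercile.

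Features at least 2-fold higher in the highest tercile numbered 937 without supplements and 50 with supplements, and how many were in both is not given here. These terciles are of whole libraries, where fibroblast-like cells took 52.6% of the lowest and 3.80% of the highest without supplements. The same holds for the tercile values of the gene lists below, and values within clusters are not given for those genes. By the mean of the log2 ratios over the 14 dpi libraries, Mnx1 came first of the 8626 features tested in both, with 3.33. It passed the 10 CPM filter only through the highest tercile in each library, so this rank depends on that filter. Next came Prph, the intermediate filament peripherin of motor and sensory neurons, with 46.5 CPM in the highest tercile and 14.7 CPM in the lowest without supplements and 73.6 and 12.8 CPM with supplements. Smim18, a small membrane protein, had 37.0 and 4.04 CPM without supplements and 64.1 and 35.1 CPM with supplements. Fbll1, a relative of fibrillarin, had 13.0 and 1.77 CPM without supplements and 11.2 and 4.98 CPM with supplements, and the retinoid receptor Rxrg had 24.8 and 3.40 CPM and 28.3 and 12.9 CPM. At the other end stood Mmp3, Ccl11, Lcn2, Dcn and Acta2. The matrix protease Mmp3 had 4.15 CPM in the highest tercile and 285 CPM in the lowest without supplements and 1.11 and 34.6 CPM with supplements. The matrix proteoglycan Dcn had 10.9 and 372 CPM without supplements and 24.5 and 508 CPM with supplements, while Ccl11 is a chemokine, Lcn2 binds siderophores and Acta2 is the smooth muscle actin.

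Clusters of similar cells were formed over all libraries without using Mnx1 or v.EGFP, and gave 19 clusters. Clusters 1 and 8 met the rule for neuron-like cells and clusters 0, 2, 3, 11 and 17 that for fibroblast-like cells, and the rest are given by number and leading genes. Most clusters came mainly from 1 library and may stand for that library rather than a cell type.

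Without supplements, Mnx1 was highest in cluster 12 (leading genes Gm26644, Wee2, Krtdap, Mgst1), which held 354 cells, at 62.3 CPM (55.7 to 69.4). Mnx1 itself was among the 10 leading genes of this cluster. So was Krtdap, a keratinocyte gene: the 8 keratinocyte markers summed to 126 CPM without supplements, 79.9 CPM with supplements and 41.5 CPM at 4 dpi, with Krt5 and Krt14 at 0 UMIs in both 14 dpi libraries, and their part in the level of Mnx1 was not tested. The mean log2 level of neuron markers lay 2.78 above that of fibroblast markers in cluster 12, against 2.49 in the neuron-like cluster 1. All 18 neuron markers reached 20 CPM in cluster 12, and it went unnamed only because of Krtdap. The cells of cluster 12 were 9.53% of the library without supplements and held 33.6% of the library's Mnx1 UMIs and 20.9% of its v.EGFP UMIs. Cluster 8 followed at 49.1 CPM (43.4 to 55.3) in 420 cells, and cluster 9, led by Snhg15, Relb and Gadd45b, at 37.5 CPM (30.3 to 46.0) in 208 cells. Cluster 16 had 22.2 CPM, cluster 10 (Cck, Ndufa4l2) 20.04 CPM and cluster 7 (Ccdc88b, Pirt, Sct) 8.96 CPM. The dividing cells of cluster 13 (Top2a, Mki67) had 5.13 CPM (3.21 to 7.76), the fibroblast-like cluster 3 (Col1a1, H19) 3.29 CPM (2.22 to 4.69) and cluster 14 1.62 CPM (0.333 to 4.72). Of the neighbours in this order, clusters 8 and 9, clusters 9 and 16, clusters 16 and 10, clusters 7 and 13, clusters 13 and 3 and clusters 3 and 14 have overlapping intervals.

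With supplements, Mnx1 was highest in cluster 8 at 31.0 CPM (24.9 to 38.1) in 166 cells and in cluster 9 at 27.3 CPM (20.1 to 36.3) in 119 cells, and these overlap. The 2 large clusters of that library were lower. Cluster 1, led by Gzmd, Cartpt, Nts and Gal, had 10.1 CPM (8.70 to 11.6) in 1173 cells, and cluster 6, led by Igf1, Cd36 and Col15a1, had 7.96 CPM (6.39 to 9.79) in 696 cells, which overlap as well. At 4 dpi, cluster 5, led by Crabp1 and Btbd17, held 6 of the 7 Mnx1 UMIs and 58.0% of v.EGFP UMIs in 735 of the 4492 cells. The other Mnx1 UMI was in cluster 9, and clusters 0, 2, 4 and 11 held 0.

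v.EGFP had a similar order, with the same clusters lowest. Without supplements it was highest in cluster 9 at 4776 CPM, then cluster 12 at 3473, cluster 10 at 2478, cluster 8 at 2328, cluster 16 at 1968 and cluster 7 at 1857 CPM, and lower in cluster 13 at 917, cluster 3 at 580 and cluster 14 at 556 CPM. With supplements it stood at 4099 CPM in cluster 9, 2752 CPM in cluster 8, 2270 CPM in cluster 1 and 2159 CPM in cluster 6. At 4 dpi it stood at 654 CPM in cluster 5, 536 CPM in cluster 9, 127 CPM in cluster 4 and 18.1, 11.3 and 1.57 CPM in the fibroblast-like clusters 2, 11 and 0. Cluster 18, led by Fabp4 and Prph, held only 26 cells, all with supplements, yet its 17053 CPM made up 4.43% of that library's v.EGFP UMIs.

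**Figure D5:**
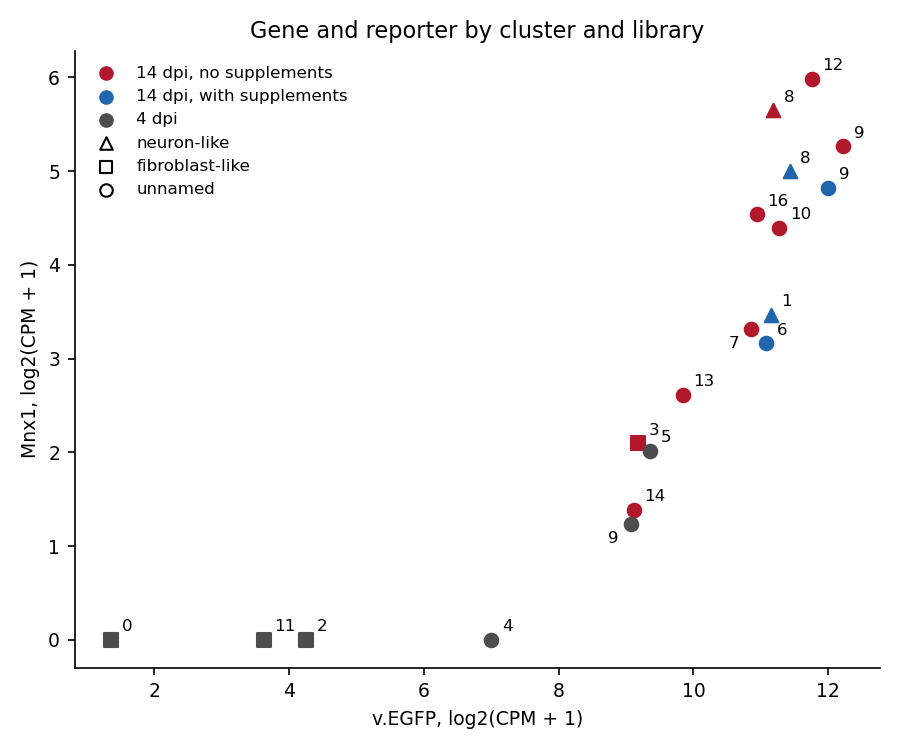
Level of Mnx1 against v.EGFP as log2(CPM + 1) in each cluster with at least 50 cells of a library, with the cluster's number beside it. Colours give the library and shapes the class, where one was given. The 4 dpi clusters without Mnx1 lie at the bottom, and clusters 12, 8 and 9 of the 14 dpi libraries lie at the top.

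Over the 19 units of a cluster in a library with at least 50 cells, Pearson's r between Mnx1 and v.EGFP on the log2(CPM + 1) scale was 0.86, and it was 0.87 over the 13 units of the 14 dpi libraries. Units of a library share its depth and reagents, so r is given as a description. Among 9631 features, v.EGFP held rank 439 by likeness to Mnx1, and Mnx1 held rank 71 by likeness to v.EGFP. Those most like Mnx1 were Nyap2, Tm2d1, Bex3, Ric3, Fsd1, Rbfox3, Ppp3r1 and Tmem169, with r of 0.94 to 0.96. Among them, Nyap2 is a neuronal phosphoprotein, Ric3 a chaperone of acetylcholine receptors and Rbfox3 the splicing factor known as NeuN. Those most like v.EGFP were Rgs4, Znrf2, Dancr, Nhlh2, Elavl4, Tnrc6a, Fam98c and Arhgap39, with r of 0.91 to 0.93, where Rgs4 dampens G protein signals, Nhlh2 is a neuronal basic helix-loop-helix factor and Elavl4 a neuronal RNA-binding protein. Over the same 19 units, r to Mnx1 was 0.02 for the cassette factor Lhx3, -0.23 for Neurog2 and 0.24 for Isl1. Their r to v.EGFP was 0.12, -0.16 and 0.32. Of these units, 6 came from 4 dpi, where each cassette factor was highest and Mnx1 lowest. For the cassette factors, r over the 14 dpi units alone is not given here.

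Gene and reporter did not keep a fixed ratio. Over whole libraries, 11.2 Mnx1 UMIs were counted per 1000 v.EGFP UMIs without supplements (10.5 to 11.9), 4.90 with supplements (4.46 to 5.39) and 3.16 at 4 dpi (1.27 to 6.51). Without supplements the ratio was 21.1 in cluster 8, 17.9 in cluster 12, 8.09 in cluster 10, 7.86 in cluster 9, 5.66 in cluster 3 and 4.82 in cluster 7. With supplements it was 11.3 in cluster 8, 6.66 in cluster 9, 4.43 in cluster 1, 3.69 in cluster 6 and 1.26 in cluster 18. In value, cluster 8 thus had the largest ratio of the clusters with at least 50 cells in both 14 dpi libraries. Its interval without supplements overlaps that of cluster 12. The other neuron-like cluster, cluster 1, stood at 4.43 with supplements. How much of each transcript the chemistry captures is not known, so the ratio compares cells with each other and not the amount of one RNA with the other.

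Clusters 8 and 9 held at least 50 cells of both 14 dpi libraries, and in each the difference in Mnx1 was smaller in value than over whole libraries, with overlapping intervals. In cluster 8, Mnx1 stood at 49.1 CPM without supplements and 31.0 CPM with supplements, a log2 ratio of 0.66 (0.31 to 1.02), and v.EGFP at 2328 and 2752 CPM, a log2 ratio of -0.24 (-0.28 to -0.20). In cluster 9, Mnx1 stood at 37.5 CPM without supplements and 27.3 CPM with supplements, a log2 ratio of 0.46 (-0.06 to 1.00) that includes 0. v.EGFP was there the higher without supplements, at 4776 CPM against 4099 CPM with supplements, a log2 ratio of 0.22 (0.18 to 0.26). Without cluster 12, which held 354 cells without supplements and 7 with them, the log2 ratio of Mnx1 between the libraries was 0.44. It was 0.76 without cluster 8 and 0.09 without clusters 8 and 12. Clusters 12 and 8 had the highest Mnx1 without supplements, so leaving them out lowers that side by the way they were chosen. The part of the makeup of the cultures in the difference between libraries was not tested.

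Fibroblast-like cells that had passed the fluorescence gate held some reporter and little Mnx1. Most neuron-like cells were in cluster 8 without supplements and in cluster 1 with supplements. Without supplements, the neuron-like clusters had 46.9 CPM of Mnx1 (41.6 to 52.8) and 2258 CPM of v.EGFP, and the fibroblast-like clusters 3.16 CPM (2.14 to 4.48) and 549 CPM. At 5000 UMIs, Mnx1 was found in 12.6% of 420 neuron-like cells (9.60 to 16.2), against 1.06% of 849 fibroblast-like cells (0.486 to 2.0), with median depths of 11164 and 9040 UMIs as counted. The shares for v.EGFP were 96.7% and 66.0%. With supplements, neuron-like clusters had 12.8 CPM of Mnx1 (11.3 to 14.3) and 2332 CPM of v.EGFP. The 36 fibroblast-like cells held 2 Mnx1 UMIs, or 6.07 CPM (0.736 to 21.9, which overlaps), and 996 CPM of v.EGFP. Clusters without a name held 62.4% of cells without supplements, at 22.3 CPM of Mnx1 (20.7 to 24.1). With supplements they held 40.6% of cells, at 10.9 CPM (9.22 to 12.7). At 5000 UMIs with supplements, Mnx1 was found in 5.15% of neuron-like cells and 5.31% of unnamed cells. At 4 dpi the fibroblast-like clusters held 0 Mnx1 UMIs in 2616 cells and 9.70 CPM of v.EGFP.

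The factors of the cassette were counted in every library, and their order differed from that of Mnx1. Transcripts of the cassette and of the cell's own genes are not separated in these counts. Lhx3, a LIM-homeodomain factor, stood at 58.4 CPM without supplements, 92.9 CPM with supplements and 114 CPM at 4 dpi. Its partner Isl1 stood at 64.9, 88.7 and 92.5 CPM in the same libraries, and the proneural factor Neurog2 at 109, 154 and 297 CPM. Between the 14 dpi libraries 0 of these 3 genes differed at least 2-fold, where 5.18% of all features were higher and 4.79% lower. By reporter level, 2 of the 3 were at least 2-fold higher in the highest tercile without supplements, Lhx3 with 78.2 CPM against 33.8 CPM in the lowest and Neurog2 with 139 CPM against 65.3 CPM, where 9.96% of all features were. With supplements 0 of 3 were, against 0.548% of all features, and Lhx3 had 108 CPM in the highest tercile and 81.0 CPM in the lowest.

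A list of 16 other transcription factors and cofactors was read for motor neurons, not all of them particular to these cells. Of the 16, 8 reached 10 CPM in either 14 dpi library. Of these, 0 were higher and 2 were lower without supplements by 2-fold or more, beside 5.18% and 4.79% of all features, with a median log2 ratio of -0.02 against -0.03 over all features. Those 2 were Onecut2, with 27.0 CPM without supplements and 93.3 CPM with supplements, and Zeb2, with 40.4 and 95.7 CPM. The most abundant others were Tshz1 (226 and 293 CPM), Lmo1 (262 and 237 CPM), Lmo4 (198 and 219 CPM) and Foxp1 (200.02 and 140 CPM), the last a factor of limb-innervating motor neurons. By reporter level, 1 of 8 was at least 2-fold higher in the highest tercile without supplements, Onecut2 with 33.1 CPM against 13.8 CPM in the lowest, and 0 of 8 with supplements. The shares over all features were 9.96% and 0.548%, so these counts lie near them. Olig2, the factor of motor neuron progenitors, was at 0 UMIs in all libraries. Lhx4, the close relative of Lhx3, was too low to be counted in these lists and is named here after its values were seen. It had 7.68 CPM in the highest tercile and 0.780 CPM in the lowest without supplements, and 6.02 and 1.75 CPM with supplements. Other low factors, also named after their values were seen, did not all follow it. Pou3f1 had 6.71 and 2.70 CPM without supplements, and 9.58 and 8.91 CPM with supplements. Isl2 had 1.16 and 0.709 CPM, and 5.23 and 5.59 CPM. Over whole libraries Isl2 stood at 0.872 CPM without supplements and 5.27 CPM with supplements. The remaining low factors had fewer counts still.

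Of 14 genes that motor neurons use for their transmitter, axon and signalling, 9 reached 10 CPM. Between the libraries, 2 were at least 2-fold higher and 0 lower without supplements, with a median log2 ratio of 0.52. Over all features 5.18% were higher and 4.79% lower, with a median of -0.03. These were Ache, the enzyme that breaks down acetylcholine, with 33.3 CPM without supplements and 8.62 CPM with supplements, and the membrane protease Ecel1, with 112 and 33.2 CPM. The choline transporter-like protein Slc44a1 had 57.5 and 29.4 CPM, the GDNF receptor Ret 55.5 and 54.97 CPM, the lectin Chodl 50.7 and 32.4 CPM and Prph 34.4 and 45.7 CPM. By reporter level, 4 of 9 were at least 2-fold higher and 1 lower in the highest tercile without supplements, and 1 of 8 was higher and 0 lower with supplements. Over all features 9.96% were higher and 8.98% lower without supplements, and 0.548% higher and 3.35% lower with supplements. Prph was the gene that was higher in both libraries. The cholinergic genes are named here after their values were seen. The vesicular acetylcholine transporter Slc18a3 had 20.2 CPM in the highest tercile and 3.48 CPM in the lowest without supplements, while the choline transporter Slc5a7 had 7.26 and 63.7 CPM. With supplements neither reached a 2-fold difference, with 16.4 and 10.5 CPM for Slc18a3 and 15.4 and 30.2 CPM for Slc5a7. Choline acetyltransferase, Chat, had 4.03 CPM without supplements, 1.957 CPM with supplements and 0 UMIs at 4 dpi.

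The genes next to Mnx1 on its chromosome were read beside it. Nom1 and Lmbr1 lie on one side and Ube3c and Dnajb6 on the other, in the RefSeq order for GRCm38.p6. Of these 4 genes, 0 differed at least 2-fold between the 14 dpi libraries, a count near the 5.18% higher and 4.79% lower over all features, with log2 ratios without over with supplements of -0.35 for Nom1, -0.44 for Lmbr1, 0.12 for Ube3c and -0.33 for Dnajb6. By reporter level 0 of those that reached 10 CPM differed at least 2-fold in either library, beside 9.96% higher and 8.98% lower over all features without supplements and 0.548% and 3.35% with supplements. Nom1, the nearest gene on its side, had 25.4 CPM in the highest tercile and 24.6 CPM in the lowest without supplements, and 34.0 and 31.8 CPM with supplements. The antisense transcript Mnx1os is not among the counted features, and no source used here says whether strands were counted apart.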

How the data were processed

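The deposited matrices hold counts of UMIs per gene and cell barcode from 10x Genomics 3′ libraries, on the build GRCm39, per the submitters' processing notes. Per the file headers, the authors used Cell Ranger 6.1.1. The calling of cells and the use of intron reads are not given in the sources used here. The 31783 deposited features were summed by symbol. Cells were kept from 500 genes upward and up to 20% mitochondrial UMIs, of 3893 deposited without supplements, 2467 with supplements and 4602 at 4 dpi, and the kept cells held 45855979, 36782509 and 12202809 UMIs. Doublets were not called, and the 5% of cells with the most UMIs were left out as an alternative.

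UMIs were summed over cells and given as CPM with exact Poisson intervals. Ratios between libraries or terciles have exact binomial (Clopper-Pearson) intervals on the split of UMIs, shares of cells exact binomial intervals, and odds ratios Woolf intervals, all at 95%. A count of 0 was set to 3 counts in a ratio. Ratios were computed for all features at 10 CPM or more in either side, and a feature was called at a 2-fold difference. Thinning drew UMIs without replacement. PCR copies are removed by UMIs, yet intervals cover counting error only.

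Clusters used 2000 variable genes of log-transformed counts per 10000, 30 principal components, 15 neighbours and the Leiden method at resolution 1 (scanpy 1.11.5, leidenalg 0.10.2, numpy 2.4.6, scipy 1.17.1), without Mnx1 and v.EGFP. A cluster was named where the mean log2 of (CPM + 10)/10 over 18 neuron markers exceeded that over 20 fibroblast markers by at least 2, or the reverse, with at least 15 of its markers at 20 CPM. No name was given where markers of another class were more frequent in its 10 leading genes, as in clusters 10 and 12 (Krtdap, a keratinocyte gene). The thresholds were chosen with the data in view. The ratios, intervals and thinning were tested on simulated data.

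The members and gene lists were chosen with earlier results of these data known. Genes named in the text are Mnx1 and v.EGFP, the cassette, the 5 most abundant of each other list with those that differ 2-fold between the 14 dpi libraries, the 8 features most like each member, and the 5 at each end of the split by v.EGFP. Alternatives changed the cell filter, the total behind the CPM, the weight of cells, the thinning depth, the calling of v.EGFP, the number of parts in the split and the cluster resolution.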

Additional observations from a re-analysis of the deposited data

How the results depend on the processing

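Of 84 alternative values for 20 results, 48 stayed within the counting interval of the reported value, 35 moved out of it without a change of sign and 1 changed sign. Without mitochondrial and ribosomal genes in the total, Mnx1 stood at 28.4 CPM without supplements and 15 CPM with supplements, and v.EGFP at 2536, 3055 and 241 CPM without supplements, with supplements and at 4 dpi. The log2 ratio of v.EGFP was then -0.27 without over with supplements and 3.66 with supplements over 4 dpi. With each cell given the same weight, the log2 ratio without over with supplements was 0.64 for Mnx1 and -0.45 for v.EGFP, and that of v.EGFP over 4 dpi was 3.0 without and 3.45 with supplements. Without the 5% of cells with the most UMIs, the ratios of v.EGFP were -0.32 between the 14 dpi libraries, 3.29 for no supplements over 4 dpi and 3.603 for with supplements over 4 dpi.

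The comparison of the 14 dpi libraries depended most on which cells entered. In neuron-like clusters alone, which are mostly cluster 8 without supplements and cluster 1 with supplements, the log2 ratio was 1.88 for Mnx1 and -0.047 for v.EGFP. Alternatives chosen after seeing the data gave, for Mnx1, 0.66 within cluster 8 and 0.46 within cluster 9. They gave 0.44 without cluster 12, 0.76 without cluster 8 and 0.088 without clusters 8 and 12. For v.EGFP these alternatives gave -0.24 within cluster 8, 0.22 within cluster 9 (the change of sign), -0.52 without cluster 12 and -0.38 without cluster 8. The value was -0.58 without clusters 8 and 12 and -0.30 without cluster 18, which left v.EGFP at 2351 CPM with supplements. The difference in the share of cells with Mnx1, 0.395 percentage points at 1000 UMIs, came from 1 random thinning. It was 0.642 in expectation over all thinnings, 0.0645 for cells with 2 UMIs and 1.10 at 2000 UMIs. The odds ratio without supplements was 4.13 pooled over clusters. With supplements, leaving out the 5% of cells with the most UMIs gave no odds ratio, since no remaining cell held Mnx1 alone. With 4 parts in place of 3, the log2 ratio of Mnx1 in the split by v.EGFP was 5.09 without supplements and 3.21 with supplements. It was 2.10 with supplements at 5000 UMIs per cell, and without supplements it was 1.83 with terciles formed within clusters and 2.93 without fibroblast-like clusters. The highest cluster level of Mnx1 without supplements was 49.8 CPM at resolution 0.5 and 79.0 CPM at resolution 2. The cause of these shifts was not tested. No paired analysis was possible because each group holds 1 library. The 7 Mnx1 UMIs at 4 dpi limit every statement on that library.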
